A study of Mus musculus with 12 samples.

Results

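The 9 genes described here restrain growth in resting T cells and were followed in splenic regulatory T cells (Treg). They are the forkhead transcription factors Foxo1 and Foxo3, their relative in function Klf2, the PI3K inhibitor Pik3ip1, the mTORC1 brakes Sesn1, Sesn3 and Tsc1, and the antiproliferative genes Btg1 and Btg2. They were found by their gene symbols in the probe annotation of the array table. All 9 genes were present, through 10 probe sets, out of 22180 genes and 23521 probe sets that had exactly 1 gene symbol. Foxo1 had 2 probe sets and each other gene had 1.

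In a resting T cell the kinase AKT is little active, and FOXO proteins stay in the nucleus, where they drive genes of survival, homing and cell cycle arrest. Signals through PI3K activate AKT, which phosphorylates FOXO proteins and sends them out of the nucleus, and which also inactivates the TSC complex so that mTORC1, the kinase complex that turns on cell growth, becomes active. Treg depend on this balance: FOXO factors are needed for Treg function, and Treg that become activated effector cells lose part of the FOXO programme.

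All mice were DEREG mice, in which the regulatory region of Foxp3, the transcription factor that defines Treg, drives a receptor for diphtheria toxin (DTx) together with a green reporter protein, and the toxin therefore removes Foxp3-expressing cells. In this strain a minority of Foxp3-expressing cells is known to lack the transgene product and to survive the toxin. All animals were sensitized to and challenged with ovalbumin, and Treg were sorted from the spleen, with 4 biological replicates in each of 3 groups. In the iTreg group 40 ng/g DTx was given to remove the endogenous Treg, and the mice then received intravenous immunoglobulin (IVIg) at 2 g/kg. The design takes the sorted cells as Treg induced under IVIg. Cells that survived the toxin cannot be told apart from induced ones, and no group received DTx with a control protein. The e_iTreg group received IVIg at 2 g/kg without DTx and by the design holds endogenous and induced Treg together. The eTreg group received human serum albumin (HSA), a control protein, at 2 g/kg without DTx and holds endogenous Treg. The growth protocol is worded alike for all samples and places DTx before IVIg or HSA, whereas the series design gives DTx to the iTreg group alone, and the grouping follows the design. IVIg and DTx change together between iTreg and eTreg and cannot be told apart there. The gate of the sort, the age of the mice, and whether an array holds 1 animal or several are not stated in the sources used.

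Values are log2 expression values of Affymetrix mouse gene arrays, so a difference of 1 is a fold change of 2, and the level of one gene cannot be set against that of another. Arrays correlated pairwise at 0.966 to 0.993. The mean of the 10 Treg and T cell markers lay at 11.50 to 11.58 in iTreg, 11.49 to 11.56 in e_iTreg and 11.52 to 11.57 in eTreg, and Foxp3 averaged 12.17 ± 0.25, 12.30 ± 0.21 and 12.46 ± 0.09 in these groups (SD, n = 4 each), with no difference past the threshold. Transcripts of other cells varied between arrays: the mean of 9 B cell markers spanned 7.12 to 7.59 in iTreg, 6.25 to 8.0 in e_iTreg and 6.24 to 8.09 in eTreg, with eTreg replicates 3 and 4 and e_iTreg replicate 4 at the low end. The mean of 7 plasma cell markers lay at 7.52 to 9.57 in iTreg, 7.32 to 7.61 in e_iTreg and 7.18 to 7.48 in eTreg, and that of 10 myeloid markers at 7.08 to 8.19, 6.31 to 7.09 and 6.35 to 7.08 in the same groups, with iTreg replicate 4 at the top of both. Of these markers Itgam and Cst3 of the myeloid list were past the threshold, higher in iTreg against both groups, and no B cell, plasma cell or CD8 T and NK marker was. No marker was at 0 on this scale, and 4 of the 8 CD8 T and NK markers averaged under log2 6. In all, 9 arrays carried both Xist and Y-linked transcripts, whereas eTreg replicate 3 and iTreg replicate 4 carried Xist alone and e_iTreg replicate 4 Y-linked transcripts alone. Counts of the 9 genes and of the pathway lists are given with and without these arrays.

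The comparison of iTreg with eTreg asks how Treg sorted after DTx and IVIg differ from Treg sorted after HSA alone. All 9 genes averaged lower in iTreg. The decrease passed the test for 6 of them, Sesn1, Pik3ip1, Sesn3, Btg2, Btg1 and Tsc1, whose mean was 1.29-fold to 1.83-fold lower in iTreg. Foxo1, Foxo3 and Klf2 had differences of -0.31, -0.37 and -0.49 that did not pass. The test was limma fitted to all 3 groups, with Benjamini-Hochberg adjustment over 23521 probe sets and a threshold of adjusted p 0.05. By the same rule 4.63% of all probe sets were lower in iTreg and 5.36% higher, or 9.99% in either direction. All 9 genes lie above the median level of all probe sets. With only the 11760 probe sets above that level fitted, 11.3% were lower and 11.5% higher, and 7 of the 9 genes passed. All 4 iTreg arrays lay below all 4 eTreg arrays for 8 of the 9 genes, against 7.82% of all probe sets that lay below and 6.90% that lay above without overlap. The median difference of the 9 genes was -0.51, and that of all probe sets was -0.01. In bulk samples such as these, fewer cells that hold a transcript and less of it in each cell cannot be told apart. When eTreg replicates 3 and 4 and e_iTreg replicate 4, which had the lowest B cell marker means, were left out, 2 eTreg arrays remained, and 1 of the 9 genes, Pik3ip1 (adjusted p = 0.0349, limma), passed, with all 9 differences between -0.81 and -0.24. In that fit 400 of all probe sets passed in place of 2349. With the 3 arrays that carried transcripts of 1 sex alone left out, 4 of the 9 passed. Without iTreg replicate 4, the array highest in plasma cell and myeloid markers, 5 passed, where 3.45% of all probe sets were lower and 4.63% higher. With the B cell marker mean as a covariate 5 passed, where 4.34% were lower and 5.28% higher. The count over all probe sets without the arrays of 1 sex alone is given at the end.

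**Figure D1:**
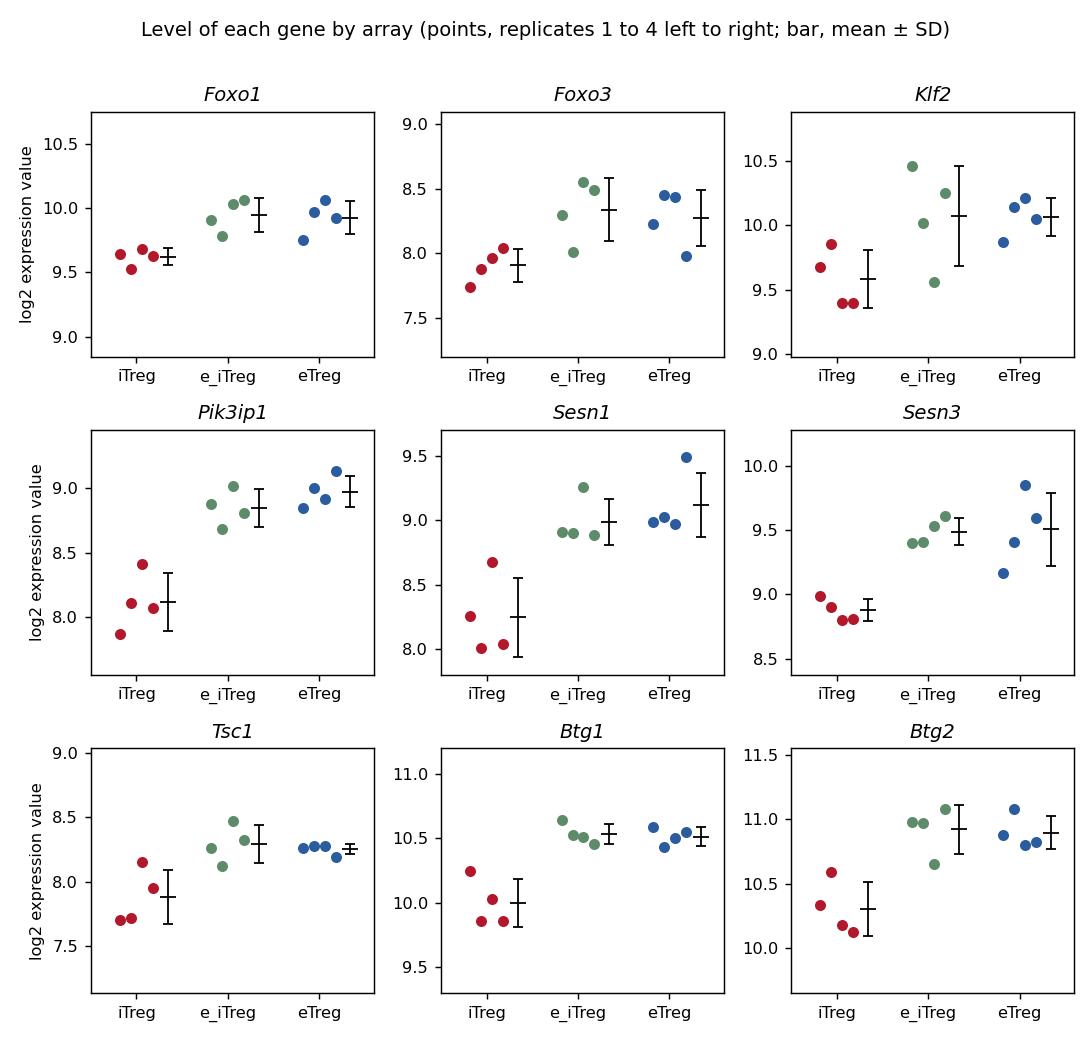
Log2 expression value (y axis) of each of the 9 genes in the 12 arrays, one panel per gene, with iTreg, e_iTreg and eTreg from left to right; points are arrays and bars the mean ± SD of 4 arrays. The iTreg mean is the lowest of the 3 in each panel, and Foxo3 is the only gene with an iTreg array above an eTreg array, 8.04 against 7.98.

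The comparison of iTreg with e_iTreg asks what depletion of the endogenous Treg changes when both groups receive IVIg. Again all 9 genes averaged lower in iTreg, and 7 passed the test: the 6 above and Foxo1. By this rule 4.75% of all probe sets were lower in iTreg and 6.49% higher, or 11.2% in either direction. With each array centred on its median these shares were 2.22% and 8.78%, and 5 of the 9 genes passed, Foxo1 and Tsc1 no longer among them. With only the 11760 probe sets above the median level fitted, 10.6% were lower and 14.7% higher, and all 9 genes passed. The iTreg and e_iTreg arrays did not overlap for 6 of the 9 genes, against 9.0% of all probe sets below and 7.57% above, and the median difference was -0.53, with -0.07 for all probe sets. Without the 3 arrays that carried transcripts of 1 sex alone, 3 of the 9 genes passed, and 1070 of all probe sets passed in place of 2643. Without the 3 arrays low in B cell markers 5 of the 9 passed, and the count over all probe sets is given at the end. With iTreg replicate 4 left out 6 passed, where 3.27% of all probe sets were lower and 5.53% higher. With the B cell marker mean as a covariate 7 of the 9 passed, and the share of all probe sets in that fit is not given here. This comparison and the one with eTreg use the same iTreg arrays, so they are not independent of each other.

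The FOXO factors are the transcription factors at the end of this pathway. Foxo1, the main FOXO gene of T cells, lies on chromosome 3 at 52268337 to 52350109 of the GRCm38.p6 assembly. It read 9.64, 9.53, 9.68 and 9.63 in iTreg, 9.91, 9.78, 10.03 and 10.06 in e_iTreg, and 9.75, 9.97, 10.06 and 9.92 in eTreg. Every iTreg array lay below every array of the other groups, although the gap between the highest iTreg array and the lowest eTreg array was narrow. The difference was -0.31 ± 0.10 from eTreg (SE, adjusted p = 0.0628) and -0.32 ± 0.10 from e_iTreg (adjusted p = 0.0452, limma). Leaving out any 1 of 9 arrays, that is each except eTreg replicates 1 and 3 and e_iTreg replicate 2, ended the call against e_iTreg, with adjusted p up to 0.126, and leaving out eTreg replicate 1 brought the difference from eTreg past the threshold at 0.0384. The dimmer second probe set of Foxo1 read 6.43 on average in iTreg, 6.60 in e_iTreg and 6.53 in eTreg, with arrays of the groups overlapping and neither difference past the threshold (adjusted p = 0.247 against e_iTreg and 0.603 against eTreg).

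Foxo3, the second FOXO gene of lymphocytes (chromosome 10, 42181845 to 42276695), read 7.74, 7.88, 7.96 and 8.04 in iTreg, 8.30, 8.01, 8.55 and 8.49 in e_iTreg, and 8.23, 8.45, 8.44 and 7.98 in eTreg. The iTreg arrays overlapped those of both other groups, because e_iTreg replicate 2 and eTreg replicate 4 lay below the highest iTreg array. Foxo3 had differences of -0.37 ± 0.13 from eTreg (adjusted p = 0.108) and -0.43 ± 0.13 from e_iTreg (adjusted p = 0.0510). Without e_iTreg replicate 2 the difference from e_iTreg passed at 0.0149, and without eTreg replicate 4 at 0.0384.

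Klf2, a zinc finger factor that FOXO1 induces in T cells and that drives the genes of exit from lymphoid tissue (chromosome 8, 72319062 to 72321654), read 9.68, 9.86, 9.40 and 9.40 in iTreg, 10.46, 10.02, 9.56 and 10.25 in e_iTreg, and 9.87, 10.14, 10.21 and 10.05 in eTreg. Its iTreg arrays lay just below the eTreg arrays, and e_iTreg replicate 3 fell inside the iTreg range. The difference was -0.49 ± 0.17 from eTreg (adjusted p = 0.0900) and -0.49 ± 0.17 from e_iTreg (adjusted p = 0.0781). Without e_iTreg replicate 3 both passed, at 0.0321 and 0.0154, and without iTreg replicate 2 the difference from e_iTreg passed at 0.0490. The array e_iTreg replicate 3 also had the highest median of all probe sets, 6.50 against 6.28 to 6.38 in the other 11 arrays. With each array centred on its median, Klf2 differed by -0.46 from eTreg (adjusted p = 0.141) and by -0.40 from e_iTreg (adjusted p = 0.192, limma). The cause of the low reading in that array was not tested.

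Pik3ip1, a transmembrane protein that binds the catalytic subunit of PI3K and lowers its activity, lies on chromosome 11 at 3319241 to 3342971. It read 7.87, 8.11, 8.41 and 8.07 in iTreg, 8.88, 8.68, 9.02 and 8.81 in e_iTreg, and 8.85, 9.0, 8.92 and 9.13 in eTreg. The 4 iTreg arrays were clearly below the other 8. Pik3ip1 fell by 0.86 ± 0.12 against eTreg, a 1.81-fold lower level (adjusted p = 0.00103), and by 0.73 ± 0.12 against e_iTreg (adjusted p = 0.00202, limma). It was the one gene of the 9 that passed against both groups under all 26 alternatives tried.

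The 3 mTORC1 brakes act at different points. Sestrins bind the GATOR2 complex and so hold back the amino acid signal to mTORC1, and Tsc1 is the stabilising partner of the TSC complex that switches off Rheb, the direct activator of mTORC1. Sesn1 (chromosome 10, 41810574 to 41908436) read 8.26, 8.01, 8.68 and 8.04 in iTreg, 8.91, 8.90, 9.26 and 8.89 in e_iTreg, and 8.99, 9.03, 8.97 and 9.49 in eTreg. The iTreg arrays did not overlap those of the other groups. Replicate 3 was the highest iTreg array, as it was for Pik3ip1. Sesn1 fell by 0.87 ± 0.16 against eTreg (1.83-fold lower, adjusted p = 0.00315) and by 0.74 ± 0.16 against e_iTreg (adjusted p = 0.00768, limma).

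Sesn3 (chromosome 9, 14276301 to 14326134), a sestrin that FOXO factors induce, read 8.99, 8.90, 8.80 and 8.81 in iTreg, 9.40, 9.41, 9.53 and 9.61 in e_iTreg, and 9.17, 9.41, 9.85 and 9.59 in eTreg. The iTreg and e_iTreg arrays were tightly grouped, and the eTreg arrays were spread more widely but stayed above iTreg. Sesn3 fell by 0.63 ± 0.13 against eTreg (1.55-fold lower, adjusted p = 0.00562) and by 0.61 ± 0.13 against e_iTreg (adjusted p = 0.00649, limma).

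Tsc1 (chromosome 2, 28640993 to 28691172) read 7.70, 7.72, 8.15 and 7.95 in iTreg, 8.26, 8.12, 8.47 and 8.32 in e_iTreg, and 8.26, 8.28, 8.28 and 8.19 in eTreg. The eTreg arrays agreed closely with each other, and iTreg replicate 3 came near them and above e_iTreg replicate 2. Tsc1 fell by 0.37 ± 0.11 against eTreg (1.29-fold lower, adjusted p = 0.0479) and by 0.41 ± 0.11 against e_iTreg (adjusted p = 0.0286, limma). Both calls changed with single arrays. Leaving out any 1 of 9 arrays, that is each except e_iTreg replicates 2 and 3 and iTreg replicate 3, ended the call against eTreg, with adjusted p up to 0.146. Leaving out e_iTreg replicate 1, 3 or 4 or iTreg replicate 1 or 2 ended the call against e_iTreg, with adjusted p up to 0.0894.

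BTG proteins bind the CCR4-NOT deadenylase and speed the shortening of mRNA tails, and in mice loss of Btg1 and Btg2 brings T cells out of quiescence. Btg1 (chromosome 10, 96617001 to 96622813) read 10.25, 9.86, 10.03 and 9.86 in iTreg, 10.64, 10.53, 10.51 and 10.46 in e_iTreg, and 10.59, 10.43, 10.50 and 10.55 in eTreg. The 8 arrays from mice without DTx lay within a narrow band, and the 4 iTreg arrays lay below it. Btg1 fell by 0.51 ± 0.10 against eTreg (1.43-fold lower, adjusted p = 0.00522) and by 0.53 ± 0.10 against e_iTreg (adjusted p = 0.00436, limma).

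Btg2 (chromosome 1, 134074865 to 134079155) read 10.33, 10.59, 10.18 and 10.12 in iTreg, 10.98, 10.97, 10.65 and 11.08 in e_iTreg, and 10.88, 11.08, 10.80 and 10.82 in eTreg. The iTreg arrays did not overlap those of the other groups, but iTreg replicate 2 came within a small distance of e_iTreg replicate 3. Btg2 fell by 0.59 ± 0.12 against eTreg (1.51-fold lower, adjusted p = 0.00730) and by 0.62 ± 0.12 against e_iTreg (adjusted p = 0.00576, limma).

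**Figure D2:**
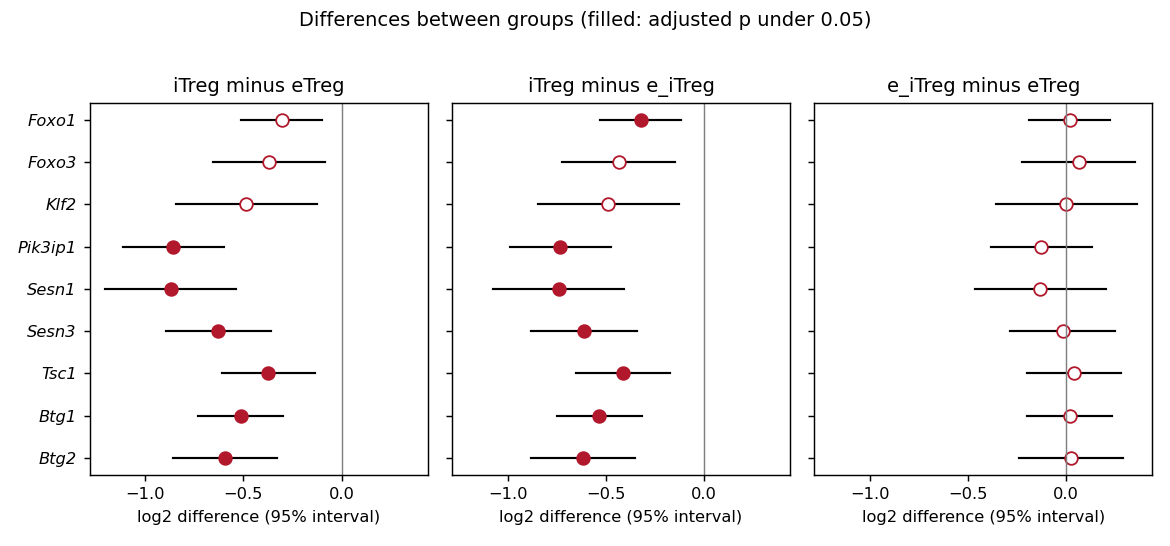
Difference of group means in log2 units (x axis) for the 9 genes in the 3 comparisons, with 95% confidence intervals. The intervals of both iTreg comparisons lie below 0 for all 9 genes, from -0.31 for Foxo1 to -0.87 for Sesn1 in iTreg minus eTreg, and those of e_iTreg minus eTreg all span 0.

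An exact two-sided permutation test of 4 arrays against 4, run per gene without adjustment, cannot give a p below 0.0286. It gave that value for 8 of the 9 genes in iTreg minus eTreg and 0.0571 for Foxo3. In iTreg minus e_iTreg it gave 0.0286 for 6 genes, 0.0571 for Foxo3 and Tsc1 and 0.0857 for Klf2. Since 0.0286 is reached whenever the groups do not overlap, these counts restate the non-overlap given above. Without overlap 7.82% of all probe sets lay below and 6.90% above against eTreg, and 9.0% and 7.57% against e_iTreg.

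**Figure D3:**
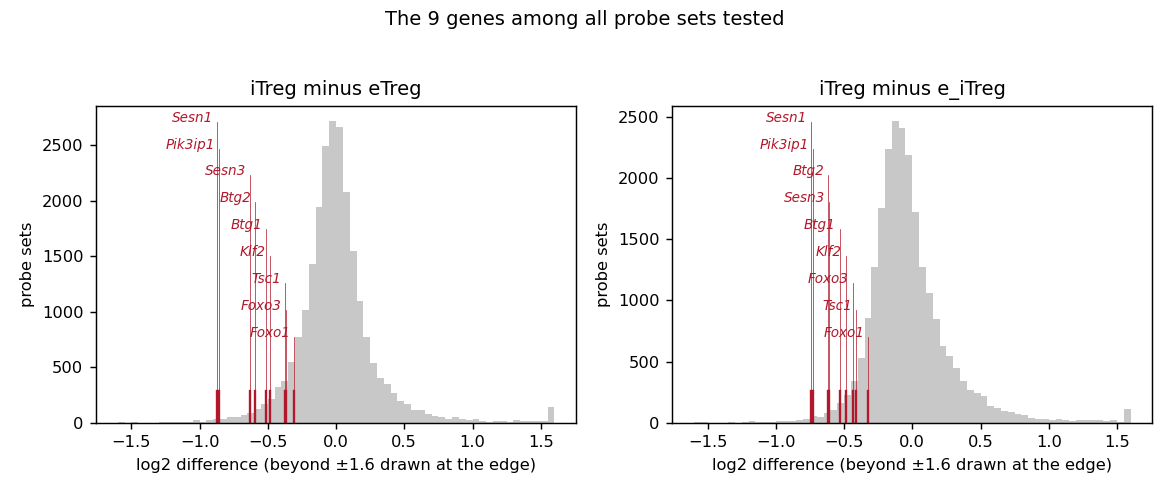
Distribution of the log2 difference over all 23521 probe sets in each iTreg comparison, with the 9 genes marked. All 9 genes lie left of the median of all probe sets, which is -0.01 against eTreg and -0.07 against e_iTreg.

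IVIg without DTx was compared with HSA by setting e_iTreg against eTreg. None of the 9 genes differed beyond the threshold in this limma fit, where 0% of all 23521 probe sets were called, the smallest adjusted p over all probe sets was 0.223 and 1649 probe sets had an unadjusted p under 0.05. The differences were small in both directions. The largest in size were Sesn1 at -0.13, with a 95% confidence interval of -0.47 to 0.20, and Pik3ip1 at -0.13, with an interval of -0.38 to 0.13. Foxo1 differed by 0.02 (-0.19 to 0.23), Btg1 by 0.02 (-0.20 to 0.24), Btg2 by 0.02 (-0.24 to 0.29) and Sesn3 by -0.02 (-0.29 to 0.25). Foxo3 at 0.06 (-0.22 to 0.35), Klf2 at 0.00 (-0.36 to 0.36) and Tsc1 at 0.04 (-0.20 to 0.28) complete the set, and the arrays of the groups overlapped for each gene, whereas 2.63% of all probe sets lay higher and 1.66% lower in e_iTreg without overlap. The intervals of Foxo3, Klf2, Sesn1 and Pik3ip1 include differences as large as 0.31, the size of the Foxo1 difference between iTreg and eTreg, which itself did not pass the test.

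The 9 genes shared a direction but not an order of arrays. Replicate 3 was the highest iTreg array for 4 genes (Foxo1, Pik3ip1, Sesn1 and Tsc1), replicate 2 for Klf2 and Btg2, replicate 1 for Sesn3 and Btg1, and replicate 4 for Foxo3. After each group's mean was taken away, the correlation over the 12 arrays was positive in 16 of the 36 pairs of genes. The highest values were between Klf2 and Btg2 (r = 0.76), Pik3ip1 and Sesn1 (r = 0.74), Pik3ip1 and Tsc1 (r = 0.73), and Foxo1 and Sesn3 (r = 0.70). The lowest was between Tsc1 and Btg2 (r = -0.58), followed by Klf2 and Tsc1 (r = -0.56). These are descriptions of 12 arrays, which share amplification and RMA normalization.

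Promoters of 3 genes are shown because Pik3ip1 and Sesn1 had the largest differences in iTreg minus eTreg and Btg1 was the only one of the 9 with a forkhead motif in the window. Each is the 250 bases before an annotated start in RefSeq (GRCm38.p6), read 5′ to 3′ on the plus strand, with the motif in capitals: chr11:3330481-3330730 for Pik3ip1, chr10:41810324-41810573 for the first of the starts of Sesn1, and chr10:96616751-96617000 for Btg1.
Pik3ip1: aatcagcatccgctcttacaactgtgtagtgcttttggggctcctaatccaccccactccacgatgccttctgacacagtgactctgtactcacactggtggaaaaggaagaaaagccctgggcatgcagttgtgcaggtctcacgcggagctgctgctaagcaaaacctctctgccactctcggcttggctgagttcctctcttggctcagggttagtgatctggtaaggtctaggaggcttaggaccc
Sesn1: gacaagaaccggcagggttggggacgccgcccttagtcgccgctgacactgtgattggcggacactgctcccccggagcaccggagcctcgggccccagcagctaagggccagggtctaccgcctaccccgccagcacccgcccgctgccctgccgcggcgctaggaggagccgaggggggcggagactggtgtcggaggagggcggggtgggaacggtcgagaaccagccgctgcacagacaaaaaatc
Btg1: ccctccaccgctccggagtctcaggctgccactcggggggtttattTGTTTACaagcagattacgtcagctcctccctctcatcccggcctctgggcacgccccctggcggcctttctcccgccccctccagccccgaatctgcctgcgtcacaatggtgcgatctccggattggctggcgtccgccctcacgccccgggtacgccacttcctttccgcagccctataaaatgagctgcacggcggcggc
The letters searched were TGTTTAC, the core that FOXO proteins bind, on both strands. The 9 genes had 10 promoters in the table, and 1 held the motif, that of Btg1, on the forward strand with its first base 204 bases before the start. Of all 32851 promoters, 1040 or 3.17% held it. The Pik3ip1 window lies inside the span of its gene, 3319241 to 3342971, before an internal start. The bases before that span were not searched. The Tsc1 window also lies mostly inside its gene. A match is a description of letters and not a site of binding, and binding was not measured in these cells.

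Other genes of the pathway were read from lists around the same roles. Beside the counts in these lists stand the shares of all probe sets. Against eTreg 4.63% were lower and 5.36% higher, and against e_iTreg 4.75% were lower and 6.49% higher. These shares belong to the fit of all 12 arrays and not to fits with arrays left out, where fewer probe sets passed. Without the 3 arrays low in B cell markers 400 passed against eTreg in either direction. Without those of 1 sex alone 1070 passed against e_iTreg. The remaining counts over all probe sets are given at the end. Among 12 PI3K subunits, 2 fell in iTreg against eTreg and none rose, with a median difference of -0.15. Pik3r1, the main regulatory subunit, averaged 10.46 in iTreg and 10.96 in eTreg, a fall of 0.51 ± 0.11 (adjusted p = 0.00912), and Pik3c3, the class III lipid kinase, fell by 0.40 ± 0.11 (adjusted p = 0.0386, limma). Pik3r3 had a difference of -0.43 (adjusted p = 0.0619). Against e_iTreg 1 of the 12 fell, Pik3c3 by 0.41 (adjusted p = 0.0334), and Pik3r1 differed by -0.34 (adjusted p = 0.0608, limma). No subunit passed against either group without the arrays low in B cell markers (medians -0.17 and -0.03). In the fit without those of 1 sex alone 1 fell against eTreg and none against e_iTreg (medians -0.25 and -0.11).

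Of 12 measured antagonists of PI3K and AKT, 3 fell in iTreg against eTreg and none rose (median -0.19). Lrig1, which lowers receptor tyrosine kinase signals, averaged 9.16 in iTreg and 10.63 in eTreg and fell by 1.46 ± 0.27 (adjusted p = 0.00365). Inpp4b, a phosphatase of PI3K lipids, fell by 0.73 ± 0.14 (adjusted p = 0.00364), and Cblb, a ubiquitin ligase that restrains T cell activation, by 0.44 ± 0.11 (adjusted p = 0.0143, limma). Against e_iTreg 4 fell: these 3, by 1.52, 0.61 and 0.54, and the AKT phosphatase Phlpp1 by 0.39 (adjusted p = 0.0479). When the 3 arrays low in B cell markers were left out 1 and 3 fell (medians -0.17 and -0.18), and without the 3 arrays of 1 sex alone 2 and 2 (medians -0.20 and -0.19).

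The kinases and regulators of AKT and mTOR went in both directions. Of 19 measured, 2 fell and 1 rose in iTreg against eTreg, with a median of 0.05. Akt1, the kinase that inactivates FOXO proteins, averaged 9.20 in iTreg and 8.62 in eTreg and rose by 0.59 ± 0.11 (adjusted p = 0.00387), and by 0.62 against e_iTreg (adjusted p = 0.00305). Rragd, a Rag GTPase of the lysosomal mTORC1 platform, fell by 0.83 ± 0.14 (adjusted p = 0.00240), and Rptor, the raptor subunit of mTORC1, by 0.49 ± 0.10 (adjusted p = 0.00641, limma). Against e_iTreg 2 fell, Rragd by 0.60 and Rptor by 0.46, and 2 rose, Akt1 and the mTOR partner Mlst8, with Mlst8 by 0.40 (adjusted p = 0.0277). In the fit without the arrays low in B cell markers 1 fell and none rose against eTreg, and 1 fell and 1 rose against e_iTreg. Leaving out those of 1 sex alone, 1 fell and 1 rose in each comparison.

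Most other brakes on mTORC1 did not pass the test. Of 19, only Castor2, an arginine sensor family member, fell against eTreg, by 0.51 ± 0.11 (adjusted p = 0.00999), with a list median of 0.02. Tsc2, the catalytic partner of Tsc1, averaged 9.26 in iTreg and 9.22 in eTreg (adjusted p = 0.933), and Sesn2, the third sestrin, 8.13 in iTreg and 8.06 in eTreg (adjusted p = 0.856, limma). Both were named after their values were seen, as the partner and the relative of Tsc1, Sesn1 and Sesn3. Against e_iTreg Castor2 fell by 0.50 (adjusted p = 0.0118) and Nprl2, a subunit of the GATOR1 brake, rose by 0.49 (adjusted p = 0.0101). Nprl2 had a difference of 0.29 from eTreg (adjusted p = 0.116, limma). Against eTreg none passed without the arrays low in B cell markers and 1 fell without those of 1 sex alone, and against e_iTreg none fell and 1 rose in both of these fits.

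Of 15 measured genes known as FOXO targets, 8 fell in iTreg against eTreg and none rose, with a median difference of -0.60. Insr, the insulin receptor, averaged 7.95 in iTreg and 8.75 in eTreg and fell by 0.79 ± 0.12 (adjusted p = 0.00129). Bcl6, a transcriptional repressor, fell by 0.81 ± 0.14 (adjusted p = 0.00238), and Bcl2l11, which encodes the pro-apoptotic protein BIM, by 0.75 ± 0.13 (adjusted p = 0.00253, limma). Against e_iTreg 8 also fell and none rose, with a median of -0.47. After removal of the 3 arrays low in B cell markers 7 and 8 fell (medians -0.47 and -0.45), and without the 3 arrays of 1 sex alone 8 and 7 (medians -0.51 and -0.41).

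Among 15 relatives of the FOX and KLF families, 5 fell in iTreg against eTreg, Foxp1, Klf13, Foxn3, Klf9 and Klf7, and Klf12 rose. Foxp1, a forkhead factor that keeps naive T cells quiescent, averaged 9.74 in iTreg and 10.65 in eTreg and fell by 0.91 ± 0.12 (adjusted p = 0.000622). Klf13 fell by 0.42 ± 0.09 (adjusted p = 0.00730) and Foxn3 by 0.63 ± 0.14 (adjusted p = 0.00912, limma). Klf9, Klf7 and Klf12, with differences of -0.51, -0.58 and 0.82, were named after their values were seen, as was Foxo4. Foxo4, another FOXO gene, averaged 7.38 in iTreg and 7.51 in eTreg (adjusted p = 0.481). Against e_iTreg 6 fell and 1 rose. The median was -0.26 against eTreg and -0.19 against e_iTreg. Without the 3 arrays low in B cell markers 1 fell and none rose against eTreg (median -0.34), and 3 fell and 1 rose against e_iTreg (median -0.22). With those of 1 sex alone left out, 2 and 3 fell and none rose (medians -0.23 and -0.21).

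Of the other BTG and TOB genes and CCR4-NOT subunits, 13 were measured and none passed against eTreg (median -0.05), where Cnot9 had a difference of 0.50 (adjusted p = 0.0556, limma). Against e_iTreg Cnot9, a subunit of CCR4-NOT, rose by 0.70 (adjusted p = 0.0101), and Tob1, an antiproliferative relative of the BTG genes, fell by 0.67 (adjusted p = 0.0105). None passed against eTreg in either fit with arrays left out. Against e_iTreg 1 rose and 1 fell without the arrays low in B cell markers, and 1 rose and none fell without those of 1 sex alone. Of 14 further genes known for T cell quiescence, some of them also in the lists above, 6 fell against eTreg and none rose (median -0.35), among them Bach2, which represses effector genes, by 1.02 ± 0.15 (adjusted p = 0.00125), and the cyclin-dependent kinase inhibitor Cdkn1b by 0.60 ± 0.11 (adjusted p = 0.00335, limma). Against e_iTreg 4 fell: Foxp1, Bach2, Cdkn1b and Tob1. Without the 3 arrays low in B cell markers 2 fell against eTreg and 4 against e_iTreg (medians -0.30 and -0.25), and without the 3 arrays of 1 sex alone 6 and 2 (medians -0.32 and -0.28).

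**Figure D4:**
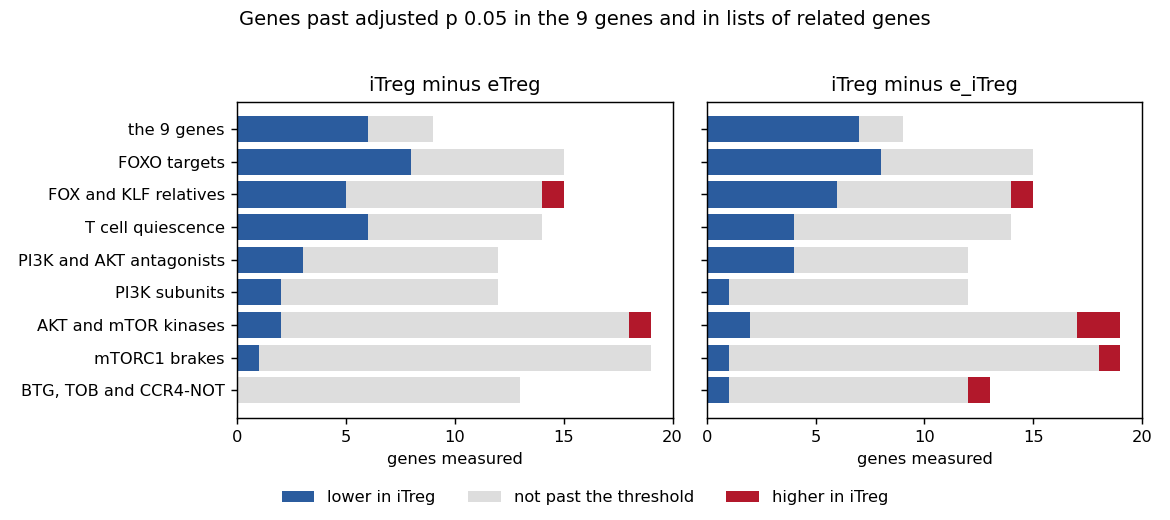
Number of measured genes per list (x axis) that were lower, not past the threshold, or higher in iTreg, against eTreg and against e_iTreg, at adjusted p 0.05. FOXO targets had 8 of 15 genes lower and none higher in both comparisons. Of 19 mTORC1 brakes 1 was lower in each, and 1 was higher against e_iTreg. Of all probe sets 4.63% were lower and 5.36% higher against eTreg, and 4.75% lower and 6.49% higher against e_iTreg.

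Genes of the cell cycle moved the other way. All 17 measured rose in iTreg against both groups, with medians of 2.25 and 2.15, and their mean lay at 9.47 to 10.2 in iTreg, 7.38 to 8.98 in e_iTreg and 7.32 to 8.93 in eTreg. With the 3 arrays low in B cell markers left out, 4 of the 17 passed against eTreg, where the median was 1.67, and 16 against e_iTreg, where it was 1.75. With the 3 arrays of 1 sex alone left out, 17 passed against eTreg (median 2.40) and 15 against e_iTreg (median 1.86). The counts over all probe sets in these fits are given before the lists and at the end. Since e_iTreg and eTreg arrays spanned a range of cell cycle levels, each of the 9 genes was set against the cell cycle mean over these 8 arrays. Foxo1 had r = -0.838 (exact permutation p = 0.0112, adjusted over the 9 genes 0.101; Spearman rho -0.714, exact p = 0.0576). Sesn3 had r = -0.694 (exact permutation p = 0.0515, adjusted 0.210; rho -0.762, exact p = 0.0368) and Pik3ip1 r = -0.669 (exact permutation p = 0.0702, adjusted 0.210). Of the 9 genes 6 had a negative r, Klf2, Btg1 and Btg2 had 0.0111, 0.475 and 0.187, and none passed after adjustment. Without e_iTreg replicate 2 and eTreg replicate 1, the arrays farthest from the median, r was -0.398 for Foxo1, -0.425 for Sesn3 and -0.320 for Pik3ip1, so the relations rest in part on those arrays. The cell cycle mean itself correlated with the B cell marker mean over the 8 arrays (r = 0.806), and Foxo1 and Sesn3 correlated with the B cell marker mean at -0.710 and -0.864. The part of either in the other was not tested, and groups of 4 arrays are too small for a value within each group.

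**Figure D5:**
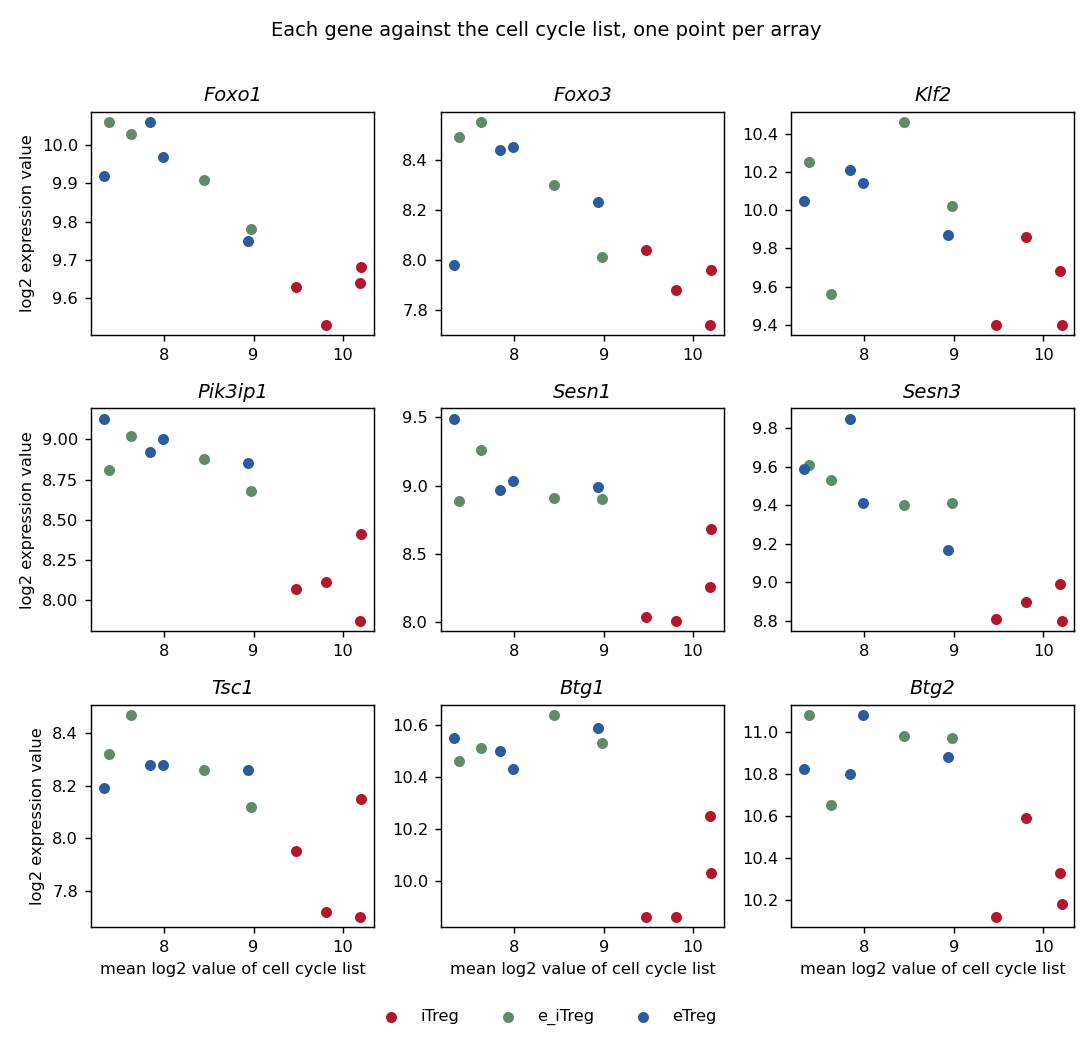
Log2 expression value of each of the 9 genes (y axis) against the mean log2 value of 17 cell cycle genes (x axis), one point per array, coloured by group. The iTreg arrays lie at 9.47 to 10.2 on the x axis, right of all other arrays, and over the 8 other arrays Foxo1 has the most negative r of the 9 genes, -0.838.

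Over all 12 arrays the genes whose pattern was most like that of Foxo1, among 12526 named genes with a mean above log2 6, were Espn (r = 0.972), Mapk8ip3 (r = 0.969), Foxn3 (r = 0.968), Map3k14 (r = 0.964) and Ssbp2 (r = 0.955). After the group means were taken away, r was 0.905, 0.904, 0.908, 0.881 and 0.849 in that order. For Klf2 they were Smap2 (r = 0.889), Vav3 (r = 0.887), Homer1 (r = 0.887), Ccnl1 (r = 0.885) and Tnfrsf12a (r = 0.874), and after the group means were taken away 0.773, 0.796, 0.779, 0.819 and 0.880. The lists for Foxo1 and Klf2 had no gene in common.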

How the data were processed

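The deposited log2 expression values were made by the authors with oligo and RMA, per the submitters' processing notes, which give no versions. RMA normalizes arrays to each other, so values are relative to the rest of an array. Per the labels' protocols 2 ng of RNA went through 2 rounds of amplification. The array files name no genome build, and positions are those of RefSeq GRCm38.p6. The 12 columns were mapped to samples by title and grouped by the series design, with 0 columns unused. Of 41345 rows, 23521 had 1 gene symbol, 1814 several and 16010 none, and no row with several named one of the 9 genes. Where a gene had more than 1 probe set, the one with the highest mean over 12 arrays gave its value.

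One linear model over the 3 groups was fitted by limma (version 3.58.1, R 4.3.3; functions lmFit and eBayes, prior degrees of freedom 5.78), two-sided, with Benjamini-Hochberg adjustment over 23521 probe sets and a threshold of 0.05. The fit was tested on simulated data with 200 changed genes. Permutation tests used scipy 1.17.1. The labels call the samples biological replicates, and p-values reflect only how these samples vary; 4 arrays per group limit the precision.

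The 9 genes and all lists were chosen with earlier results of these data known. The rule named the 9, the 3 with the smallest p in each pathway list in iTreg minus eTreg (where fewer than 3 passed, those and the next), the 5 most like Foxo1 and Klf2, and Foxp3. Outside it, Tsc2, Sesn2, Foxo4, Klf9, Klf7, Klf12, Phlpp1, Mlst8, Tob1, Itgam and Cst3 were named after their values were seen. Alternatives were other scalings, filters, error models and samples left out; the pathway lists with samples left out were added after seeing the data.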

Additional observations from a re-analysis of the deposited data

Results flagged for a closer look

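An array was looked at again where it stood far from the other 3 of its group, by Dixon's ratio of its gap to the range and its 95% critical value. Of 75 groups of 4 values examined, 7 had such an array, and chance gives about 1 in 20. Sesn1 read 9.49 in eTreg replicate 4, with the next array at 9.03, and 9.26 in e_iTreg replicate 3, with the next at 8.91. Tsc1 read 8.19 in eTreg replicate 4, below the nearest array at 8.26, in a group whose whole range was narrow. In e_iTreg replicate 1 the mean of the AKT and mTOR kinase list was 8.31, with the nearest array at 8.41, and that of the mTORC1 brakes was 8.15, with the nearest at 8.21. In iTreg replicate 4 the plasma cell marker mean was 9.57, with the nearest at 7.82, and the myeloid marker mean was 8.19, with the nearest at 7.22. Without iTreg replicate 4, 5 of the 9 genes passed against eTreg and 6 against e_iTreg.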

How the results depend on the processing

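Each result was recomputed under 26 alternatives, one of them, without the 3 arrays of 1 sex alone, chosen after seeing the data. All 18 differences of the 9 genes between iTreg and the other groups stayed below 0 under all of them, and 4 passed the limma threshold under all: Pik3ip1 against both groups, and Sesn3 and Btg1 against e_iTreg. The filters, the replicate block and the looser threshold change only the p and leave the difference as it was. A sign could not turn under those, nor where the array left out was of the group not compared. The count of the 9 past the threshold was 6 against eTreg (5 to 7 with 1 array left out) and 7 against e_iTreg (5 to 8). It was 1 against eTreg without the 3 arrays low in B cell markers, where 400 of all probe sets passed in place of 2349, and 3 against e_iTreg without the 3 arrays of 1 sex alone, where 1070 passed in place of 2643. Fewer samples entered both fits. Of all probe sets, 1164 passed against eTreg without the arrays of 1 sex alone, 1547 without eTreg replicate 2 and 1487 without eTreg replicate 3. Against e_iTreg 1356 passed without the arrays low in B cell markers, 1747 without e_iTreg replicate 3, 1616 without e_iTreg replicate 4 and 1730 without iTreg replicate 1. With the replicate block the counts were 6, 6 and 0, and Foxo1 lost its call against e_iTreg (adjusted p = 0.0588, limma). In that fit 4.34% of all probe sets were lower and 5.12% higher against eTreg, and 4.06% and 6.12% against e_iTreg. No probe set was called between e_iTreg and eTreg. Same-numbered arrays deviated together with r from -0.152 to 0.238, and 3 of 12 matched their own number best. Between e_iTreg and eTreg r was 0.160, 0.067, 0.078 and 0.238 for replicates 1 to 4. Whether same-numbered samples share more than a number cannot be told from these values.

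Between e_iTreg and eTreg no gene passed under any alternative and signs turned about 0. Median centring gave -0.048 for Foxo1, -0.0016 for Foxo3, -0.064 for Klf2, -0.026 for Tsc1, -0.046 for Btg1 and -0.041 for Btg2. Sesn3 was 0.022 with quantile normalization and 0.023 with the B cell markers as a covariate. Without the arrays low in B cell markers Foxo3 was -0.047, Sesn1 0.013, Sesn3 0.16 and Btg2 -0.11, and without those of 1 sex alone Klf2 was -0.0087, Sesn3 0.057 and Btg2 -0.060. With 1 array left out Foxo1 ranged from -0.040 to 0.074, Foxo3 from -0.033 to 0.17, Klf2 from -0.13 to 0.17, Sesn3 from -0.13 to 0.099, Tsc1 from -0.019 to 0.098, Btg1 from -0.016 to 0.046 and Btg2 from -0.030 to 0.12. Against the cell cycle mean, Foxo3 had r = 0.177 without the 2 farthest arrays and Klf2 a rho of -0.143. The cause of these changes was not tested.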
